A study of Mus musculus with 12 samples.

Results

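The coding genes that flank Pou2f3 on mouse chromosome 9 were examined as a group, to ask whether genes close to the disrupted locus differed between genotypes. A gene was a member if it was protein coding, if its lowest annotated coordinate on GRCm39 lay between 38 and 48 Mb, and if it was neither Pou2f3, Rps25 or Atp5mg nor an olfactory receptor with a current Or symbol. Of 185 coding genes in this window, 91 olfactory receptors and the 3 named genes were left out, and 91 of the 56065 deposited genes remained. Olfr908, an olfactory receptor under an older symbol, is one of them. Member starts, taken as the lowest coordinate on either strand, ran from 4.61 Mb below to 4.32 Mb above the Pou2f3 gene. That gene spans chr9:43035228-43121666 on the minus strand. For members on the minus strand the lowest coordinate is the end of the gene and not where transcription begins. The lower side held 22 members and the upper side 69.

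RNA was sequenced from whole submandibular glands (SMGs) of mice aged 8 weeks, in 4 groups of 3 libraries with 1 mouse each. The groups were C57BL/6J females, C57BL/6J males, and females and males of the Pou2f3-/- line, whose full name is C57BL/6J-Pou2f3em1Cbwi/J. This line carries an endonuclease-mediated allele in every cell, so a difference can arise in any tissue and is not bound to tuft cells (TCs). Whether wild-type mice were littermates of the Pou2f3-/- mice, and the hour at which glands were taken, are not given in the sources used here.

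POU2F3 is the transcription factor that TCs, rare chemosensory cells of epithelia, need in order to form. In mice made by genome editing, a gene beside the edited one can change because the edit removes or exposes regulatory DNA, or because DNA linked to the allele is inherited with it. It can also change with the state of the tissue like any other gene, and the window holds genes of many unrelated kinds, among them chaperones, ubiquitin enzymes, adhesion molecules, ion channel subunits, apolipoproteins and the CD3 chains of the T cell receptor.

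Pou2f3 itself was close to the detection limit in every gland. Wild-type females had 1, 0 and 2 counts of it and wild-type males 1, 10 and 0, against 0 in each Pou2f3-/- female and 0, 3 and 1 in Pou2f3-/- males. The groups overlapped, so these counts do not check the genotype labels. Total counts ran from 47031917 to 67881902 per library, and a count of 0 allowed up to 0.0399 to 0.0782 counts scaled to library size (CPM), counting error only. TMM scaling factors, which correct for a few abundant RNAs, ran from 0.625 to 0.759 for wild-type and 0.902 to 1.03 for Pou2f3-/- females, and from 1.04 to 1.45 for wild-type and 1.11 to 1.25 for Pou2f3-/- males. The 8 acinar markers summed to 48300 to 59200 CPM in wild-type and 30200 to 37500 CPM in Pou2f3-/- females, and 6 markers of granular convoluted tubules to 4730 to 9910 CPM in females and 62300 to 109000 CPM in males, so defining genes of SMG acini and tubules were abundant. In whole tissue, fewer cells of a type and less RNA per cell cannot be told apart. Pou2f3-/- female 2 stood apart by transcripts of small intestine, described with the apolipoproteins.

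Of the 91 members, 68 had enough counts to be tested and 23 did not. The levels of the tested members spanned a wide range. Averaged over the 12 libraries and divided by exon length, the highest were Hyou1 at 35.5 CPM per kb and Hspa8 at 33.8 CPM per kb, chaperones of the endoplasmic reticulum (ER) and the cytosol. They were followed by Fxyd2, a regulatory subunit of the sodium pump, at 19.7, by Tagln, a smooth muscle actin-binding protein, at 17.5, and by Ddx6, an RNA helicase of mRNA decay, at 16.5 CPM per kb. The median of the tested members was 1.62 CPM per kb, and 12 of them had a mean under 1 CPM in every group. The gland therefore held strong, moderate and near-silent genes side by side in this window.

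Usp2 was the member with the lowest adjusted p for genotype in females, and the only one called in males. It encodes a ubiquitin-specific protease that removes ubiquitin from target proteins, several of them parts of the circadian clock, and its own RNA cycles over the day in many tissues. It lies at chr9:43978264-44006924 on the plus strand, 0.857 Mb above Pou2f3. Levels were 53.1, 47.8 and 53.2 CPM in wild-type females and 10.4, 9.1 and 12.2 CPM in Pou2f3-/- females. In males they were 43.5, 46.6 and 40.3 CPM in the wild type and 23.7, 20.8 and 29.4 CPM in Pou2f3-/-. Every Pou2f3-/- gland was below every wild-type gland of either sex, and the lowest values were those of the 3 Pou2f3-/- females. The level was 4.87-fold lower in females (log2 fold change −2.28, SE 0.14, adjusted p = 2e-06, edgeR quasi-likelihood test with Benjamini-Hochberg adjustment). It was 1.76-fold lower in males (log2 fold change −0.82, SE 0.13, adjusted p = 0.023, edgeR). The log2 fold change in females minus that in males was −1.47 (SE 0.19, adjusted p = 0.0027 for the interaction, edgeR). Wild-type males and females did not differ beyond the threshold (log2 fold change −0.24, SE 0.13, adjusted p = 0.17, edgeR).

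The female call of Usp2 remained under every alternative setting and without any 1 of the 12 libraries. The male call was less firm. It was lost without Pou2f3-/- female 1 (adjusted p = 0.057), Pou2f3-/- male 2 (0.15), wild-type female 3 (0.051), wild-type male 1 (0.11), wild-type male 2 (0.09) or wild-type male 3 (0.07), and in a fit of the male libraries alone (0.07), all by edgeR, while its log2 fold change stayed between −0.96 and −0.71. The antisense coding gene Gm49380, whose exons share bases with Usp2, had at most 0.493 CPM in any library, far below the level of Usp2.

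Clock genes outside the window were counted in the same contrasts. Of 18 clock genes tested, 12 were lower and 3 higher in Pou2f3-/- females, with a median log2 fold change of −0.92, where 19.3% of all genes were lower and 17.6% higher. In Pou2f3-/- males 9 were lower and 3 higher, with a median of −0.62, where 0.235% of all 17893 tested genes were called. The list was chosen with results of these glands known and is not independent evidence. Whether the hour of collection differed between genotypes was not tested.

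DNA upstream of Usp2 was searched for the letters that clock factors are known to bind, in the 300 bases before the annotated start of each gene's main transcript on GRCm39. The E-box, CACGTG, reads the same on both strands, and was present before 12 of 89 member starts and before 6.99% of 21422 coding starts. The D-box, written as TTATGTAA or TTACGTAA and searched on both strands, was present before 1.12% of coding starts and before no member start, which says only that these letters are absent from those windows. The strips below show the E-box in capitals for the 4 members that hold one and were called in a genotype comparison or in its difference between the sexes, on the strand of the gene. The strip of Usp2 is chr9:43978148-43978177, and its E-box begins 104 bases before the start of the transcript. The strips of Oaf (chr9:43151422-43151451), C2cd2l (chr9:44232215-44232244) and Dpagt1 (chr9:44237842-44237867) hold E-boxes that begin 187, 119 and 292 bases before theirs. The match is a description of sequence and not of binding.
Usp2: gtgctttttctcCACGTGgttctctgtata
Oaf: gattatttcatcCACGTGgcaccagaacaa
C2cd2l: ccatcccttctaCACGTGctccacaggcag
Dpagt1: gtgtcagcCACGTGgtacgaggaagc

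Among the genes closer to Pou2f3 than Usp2, Trim29 was called in females, and the male groups of Oaf, Thy1 and Gm49380 did not overlap, as for 14.5% of all genes tested. The nearest on the lower side, Tlcd5, lies on the minus strand with its lowest coordinate 15.3 kb from the Pou2f3 gene. Tlcd5 was near the detection limit, at 0.107 to 0.345 CPM over the 12 libraries. Arhgef12 encodes a guanine nucleotide exchange factor of the cytoskeleton's small GTPases. It lies on the minus strand, with its lowest coordinate, the end of the gene, 0.16 Mb below Pou2f3. It stood at 102, 99.6 and 97 CPM in wild-type females and 92.8, 95 and 87.8 CPM in Pou2f3-/- females. The female groups did not overlap, yet the difference was small (log2 fold change −0.12, SE 0.11, adjusted p = 0.42, edgeR). In males Arhgef12 stood at 115, 111 and 131 CPM in the wild type and 125, 101 and 106 CPM in Pou2f3-/-, with overlap. Farther down, Grik4, a kainate receptor subunit, had at most 0.359 CPM, and Tbcel, a tubulin cofactor, had log2 fold changes of 0.17 (SE 0.14) in females and −0.15 (SE 0.14) in males. Tecta, which encodes a protein of the inner ear, was not tested and had at most 6 counts in any library.

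On the upper side the adjoining gene is Oaf, which encodes a secreted protein. It lies on the minus strand, with its lowest coordinate, the end of the gene, 5.2 kb beyond Pou2f3. Its levels were 2.98, 2.78 and 2.92 CPM in wild-type females and 2.38, 3.07 and 2.57 CPM in Pou2f3-/- females. In males they were 1.91, 2.47 and 1.64 CPM in the wild type and 3.08, 5.48 and 3.38 CPM in Pou2f3-/-. The female groups overlapped, while all 3 Pou2f3-/- males lay above the wild-type males. The male difference did not pass the threshold (log2 fold change 0.99, SE 0.23, adjusted p = 0.11, edgeR), although it did without a low-count filter (0.02), by DESeq2 (0.0053) and without Pou2f3-/- male 1 (0.023). The difference between the sexes was called (interaction −1.10, SE 0.32, adjusted p = 0.028, edgeR), but not by limma (0.066), nor without any 1 of 4 libraries: Pou2f3-/- female 1, Pou2f3-/- male 2, and wild-type males 1 and 3 (up to 0.068).

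Trim29, a ubiquitin ligase of epithelia, starts 0.1 Mb above Pou2f3. It stood at 7.82, 8.95 and 9.93 CPM in wild-type females against 7.15, 7.12 and 6.47 CPM in Pou2f3-/- females. These groups did not overlap and the difference was called (log2 fold change −0.36, SE 0.13, adjusted p = 0.046, edgeR), a call that 7 of 10 other settings and the removal of any 1 of 7 libraries (Pou2f3-/- females 1 and 3, wild-type females 2 and 3, and each wild-type male) ended, with an adjusted p of up to 0.12. Nectin1, an adhesion molecule, ran from 13.4 to 18.5 CPM over the 12 libraries with log2 fold changes of 0.15 (SE 0.10) in females and −0.09 (SE 0.10) in males. Thy1, a surface glycoprotein of T cells, nerve and stroma, starts 0.833 Mb above Pou2f3 and stood at 1.44, 1.04 and 1.13 CPM in wild-type males and 1.81, 4.3 and 2.78 CPM in Pou2f3-/- males. The male groups did not overlap and the log2 fold change was 1.30 (SE 0.32, adjusted p = 0.13, edgeR). In females Thy1 overlapped, at 5.56, 3.36 and 3.88 CPM in the wild type and 2.98, 4.8 and 2.77 CPM in Pou2f3-/-. The plot of levels in Usp2 and genes close to Pou2f3 sets these values side by side.

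**Figure D1:**
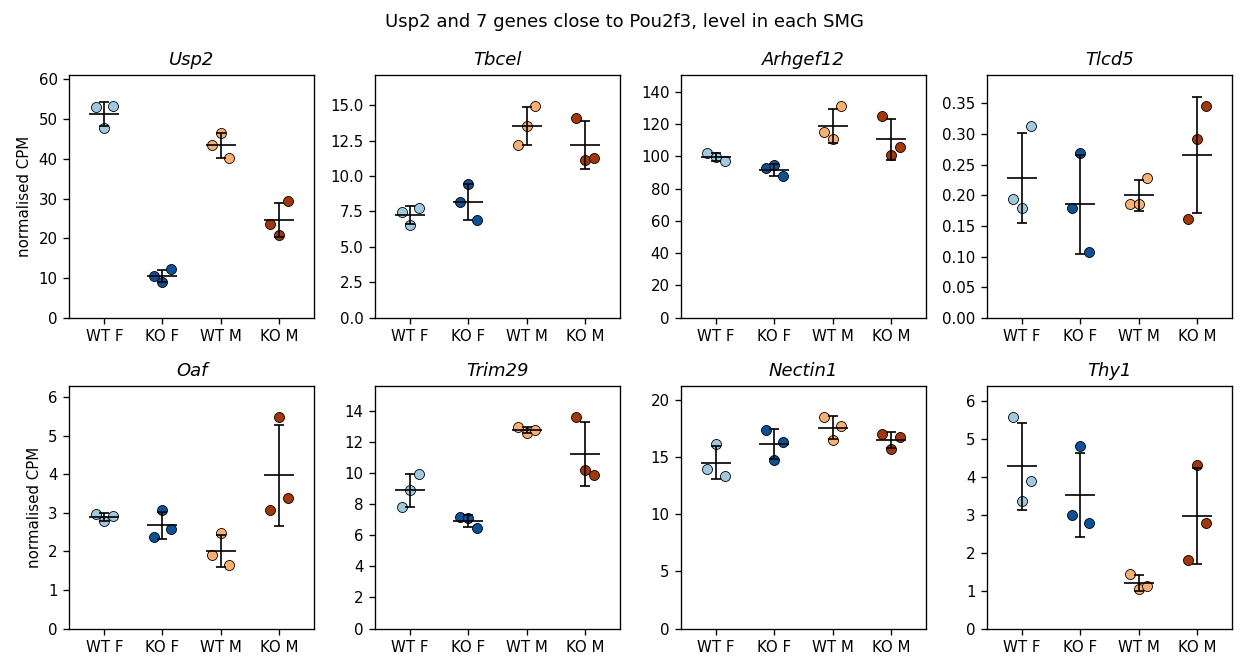
Level of Usp2 and 7 genes close to Pou2f3 in each SMG, in normalised CPM on the y axis, by group on the x axis (WT, wild type; KO, Pou2f3-/-; F, female; M, male). Points are single mice and bars show the mean and SD of 3. Usp2 is lower in both KO groups, whereas Tbcel, Arhgef12, Tlcd5 and Nectin1 show no called genotype difference.

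The members were also grouped by distance from the locus. Among members whose lowest coordinate lay under 1 Mb from Pou2f3, 3 of 15 tested were called in females, all of them lower. They were Usp2, Rnf26, a ubiquitin ligase of the ER membrane, and Trim29. Over all genes tested, 36.9% were called in females. From 1 to 2.5 Mb, 14 of 37 tested members were called in females, 5 higher and 9 lower, and at 2.5 Mb or more 7 of 16, 3 higher and 4 lower. In males, the 1 call, that of Usp2, lay under 1 Mb, or 6.67% of the tested members there beside 0.235% of all genes. This share rests on 1 gene, whose male call was lost without any 1 of 6 libraries. The median absolute log2 fold change in females was 0.28, 0.38 and 0.40 in these bins, from near to far, beside 0.43 over all genes tested. In males it was 0.19, 0.23 and 0.15, beside 0.17 over all genes. These are descriptions of the window, and no trend with distance was tested.

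**Figure D2:**
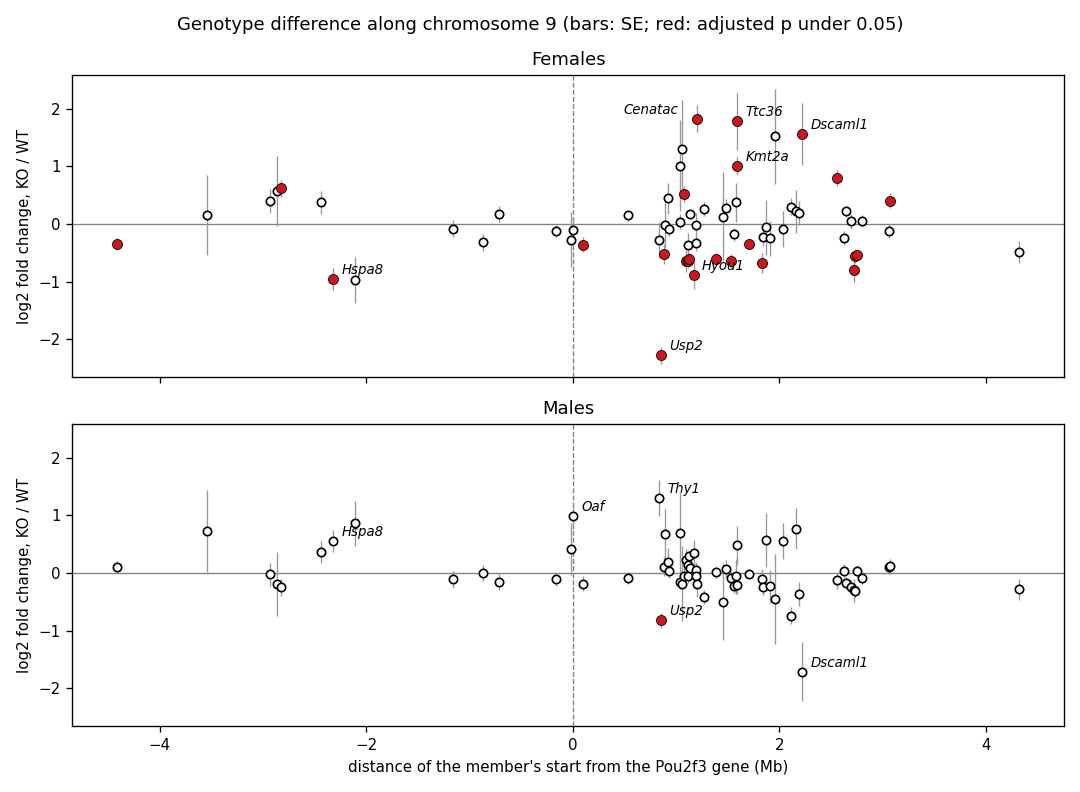
Log2 fold change between Pou2f3-/- and wild type (y axis) in females (upper panel) and males (lower panel). The x axis is the distance of each member's lowest coordinate from the Pou2f3 gene in Mb. Points are 66 tested members with an SE under 1 in each panel, bars are the SE, and red marks an adjusted p under 0.05. Called members lie on both sides in females, and Usp2 is the red point in males.

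In females, 24 of 68 tested members differed by genotype, 8 higher and 16 lower in Pou2f3-/- glands. This is 35.3% of the members, beside 36.9% of all genes tested, 38.5% of coding genes and 38.4% of coding genes on the rest of chromosome 9, so the share of calls in the window was near the background. By direction, 17.6% of all genes were higher and 19.3% lower, and 14.7% and 23.9% of coding genes. The median log2 fold change was −0.04 over the members, 0.03 over all genes and −0.08 over coding genes. The groups did not overlap for 31 members (45.6%), 12 higher and 19 lower, beside 49.3% of all genes. Under upper-quartile scaling, which moved the median of all genes by 0.10, the calls split into 12 higher and 13 lower. Of the 24 calls, 15 were kept in every setting and without any 1 library, among them those of Arcn1, Cenatac, Cep164, Ddx6, Dpagt1, Gramd1b, Hspa8, Hyou1, Kmt2a, Mpzl2, Pafah1b2, Tagln, Ube4a and Usp2. Without Pou2f3-/- female 2, the library with intestinal transcripts, 24 members were again called, 6 higher and 18 lower.

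Of 12 tested members on a list drawn up for the ER, the Golgi and chaperones, 6 fell in Pou2f3-/- females (Hspa8, Hyou1, Dpagt1, Arcn1, Sidt2 and Rnf26). The other 6 did not pass the test, and the median log2 fold change of the list was −0.43. The list holds the lysosomal Sidt2, and Rnf26 is also on the ubiquitin list below. Gramd1b, which rose, and C2cd2l, which fell, also act at the ER and are not on it. Over all genes tested, 19.3% were lower, and 23.9% of coding genes. Hspa8, the constitutive cytosolic HSP70 chaperone, stood at 320, 281 and 341 CPM in wild-type females and 157, 150 and 177 CPM in Pou2f3-/- females. In males it stood at 272, 302 and 271 CPM in the wild type and 277, 451 and 520 CPM in Pou2f3-/-. The female groups did not overlap (1.95-fold lower, log2 fold change −0.96, SE 0.19, adjusted p = 0.0022, edgeR). In males, Pou2f3-/- male 1 lay within the wild-type range and the other 2 above it (log2 fold change 0.56, SE 0.19, adjusted p = 0.26, edgeR). Without Pou2f3-/- male 1 the male difference was called (0.79, adjusted p = 0.013, edgeR). Hspa8 also hosts small nucleolar RNA genes that share its exon bases on the same strand, so part of its counts could be split differently.

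Hyou1, an ER chaperone of the HSP70 family that rises when unfolded proteins accumulate, stood at 192, 204 and 186 CPM in wild-type females and 113, 89.8 and 114 CPM in Pou2f3-/- females. Wild-type males had 313, 538 and 308 CPM and Pou2f3-/- males 333, 532 and 598 CPM. Pou2f3-/- females were the lowest of all groups, without overlap with any other (1.84-fold below wild-type females, log2 fold change −0.88, SE 0.24, adjusted p = 0.012, edgeR), whereas the male groups overlapped (0.34, SE 0.24, adjusted p = 0.64, edgeR). Arcn1, the delta subunit of the COPI coat that carries cargo between Golgi and ER, stood at 206, 199 and 231 CPM in wild-type and 124, 142 and 141 CPM in Pou2f3-/- females (log2 fold change −0.64, SE 0.12, adjusted p = 0.0015, edgeR). Dpagt1, which starts the lipid-linked sugar chain for N-glycosylation, stood at 15.6, 16 and 18.5 CPM against 9.99, 9.46 and 12.8 CPM (−0.64, SE 0.12, adjusted p = 0.0016, edgeR). Neither gene overlapped between female genotypes, and both overlapped between male genotypes.

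Sidt2, a lysosomal membrane protein that carries RNA and DNA, was lower in Pou2f3-/- glands of both sexes without overlap. It stood at 101, 108 and 103 CPM in wild-type females and 82.7, 60.6 and 69.5 CPM in Pou2f3-/- females (log2 fold change −0.55, SE 0.12, adjusted p = 0.0036, edgeR). In males it stood at 71.7, 61.1 and 67 CPM and 58.6, 50.6 and 50.6 CPM, a difference that did not pass the threshold (−0.32, SE 0.12, adjusted p = 0.3, edgeR). With Usp2 it was 1 of 2 members whose groups separated downwards in both sexes, a pattern that 1.77% of all genes tested had, and 0 of the 68 tested members separated upwards in both sexes, beside 0.844%. The untested Crtam did so in scaled values only, with at most 6 counts. Wild-type female 1 and Pou2f3-/- female 1 both had 3 counts of it, so its order shows no difference. By limma on the authors' normalized values the female call of Sidt2 was narrowly lost (adjusted p = 0.051).

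The wider pathways of these members were counted for context, from lists chosen with earlier results of these data known. Of 15 ER chaperone genes beside Hyou1, 10 fell in Pou2f3-/- females, with median log2 fold changes of −0.78 (females) and 0.31 (males), where 19.3% of all genes and 23.9% of coding genes were lower in females. Of 12 heat shock genes beside Hspa8, 7 fell in females, with medians of −0.47 and 0.20. Of 17 genes of N-glycan precursor synthesis beside Dpagt1, 11 fell and 1 rose in females, with medians of −0.48 and −0.11. Markers of acinar cells, which are rich in secretory machinery, were lower in Pou2f3-/- females in the summed CPM given above. Of these 8 markers, 3 were called lower. Their part in these differences was not tested.

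Among 7 ubiquitin genes, all tested, 4 fell in Pou2f3-/- females, where 19.3% of all genes were lower: Usp2, Ube4a, Rnf26 and Trim29. Ube4a, a ubiquitin chain assembly factor, stood at 67.8, 65.4 and 69.2 CPM in wild-type females and 53, 53.1 and 53.2 CPM in Pou2f3-/- females. The replicates were tight and the groups apart, though the step was small (1.27-fold lower, log2 fold change −0.35, SE 0.08, adjusted p = 0.0054, edgeR). Rnf26 fell by 0.52 (SE 0.17, adjusted p = 0.031, edgeR), a call lost without Pou2f3-/- female 2 or 3 or wild-type female 3 (up to 0.079) and under upper-quartile scaling or library sizes from coding genes (up to 0.073). Rnf26 also shares exon bases with Gm49380 on the same strand. Cbl, a ligase that turns off receptor tyrosine kinases, had log2 fold changes of −0.09 (SE 0.12) in females and 0.04 (SE 0.12) in males. Ubash3b, a phosphatase of the same signalling system, reached 3.19 CPM in wild-type female 1 and 0.75 to 2.17 CPM in the other libraries. The same library had the highest sum of 5 macrophage markers, 138 CPM against 46.4 to 99.2 CPM elsewhere, and their part in this value was not tested.

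Among the metabolic enzymes, Pafah1b2, a catalytic subunit of platelet-activating factor acetylhydrolase, stood at 34, 30.8 and 34.1 CPM against 23, 22.5 and 22.4 CPM in females (−0.54, SE 0.09, adjusted p = 0.00066, edgeR). The female groups did not overlap. In males it stood at 26.2, 30.7 and 27.6 CPM in the wild type and 27.1, 30.6 and 29.3 CPM in Pou2f3-/-, with overlap.

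Of 9 tested members that act in transcription, chromatin and RNA, 4 rose in Pou2f3-/- females (Cenatac, Kmt2a, Hinfp and Bud13), 1 fell (Ddx6) and 4 did not pass, where 17.6% of all genes and 14.7% of coding genes were higher. Cenatac, a protein of the minor spliceosome, stood at 2.45, 1.59 and 1.46 CPM in wild-type females and 7.01, 5.3 and 7.42 CPM in Pou2f3-/- females. Its male levels were 5.78, 3.35 and 4.16 CPM in the wild type and 3.92, 4.3 and 3.47 CPM in Pou2f3-/-. It was 3.56-fold higher in Pou2f3-/- females without overlap (log2 fold change 1.83, SE 0.24, adjusted p = 0.0003, edgeR) and overlapped in males (−0.19, SE 0.23, adjusted p = 0.82, edgeR). Wild-type females held the lowest 3 of the 12 values. Cenatac shares exon bases with the ribosomal protein gene Rps25 on the opposite strand, whose raw counts were 2265, 3316 and 2583 in Pou2f3-/- females and 3055 to 3439 in wild-type females. These counts are not scaled. The library total times its TMM factor ran from 46653719 to 59589747 in Pou2f3-/- females and from 38365609 to 51427514 in wild-type females. Libraries were stranded, but the strand setting used in counting is not given in the sources used here.

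Kmt2a, a histone H3 lysine 4 methyltransferase, stood at 57.4, 51.4 and 40.6 CPM in wild-type females and 110.0, 84.7 and 108 CPM in Pou2f3-/- females (2.02-fold higher, log2 fold change 1.01, SE 0.16, adjusted p = 0.00065, edgeR). The female groups did not overlap. Males stood at 91.8, 65.3 and 91.4 CPM in the wild type and 76.6, 70.6 and 69.6 CPM in Pou2f3-/-, with overlap. Hinfp, a histone gene regulator, rose by 0.52 in females (SE 0.14, adjusted p = 0.011, edgeR), a call lost without Pou2f3-/- female 1 or 3 or wild-type female 3 (up to 0.081). Bud13, of the complex that retains unspliced RNA and aids splicing, rose by 0.40 (SE 0.13, adjusted p = 0.033, edgeR), a call lost in 5 of 10 other settings and without any 1 of 7 libraries, namely all 6 female libraries and wild-type male 3 (up to 0.17 and 0.16). Ddx6 fell, from 175, 185 and 190 CPM to 110.0, 130.0 and 122 CPM (−0.61, SE 0.10, adjusted p = 0.00097, edgeR), and in males lay at 165 to 184 CPM in both genotypes. Bcl9l, a Wnt coactivator, was higher in 3 of 3 Pou2f3-/- females and lower in 3 of 3 Pou2f3-/- males with neither difference called, as 0.26 (SE 0.12) and −0.42 (SE 0.12).

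**Figure D3:**
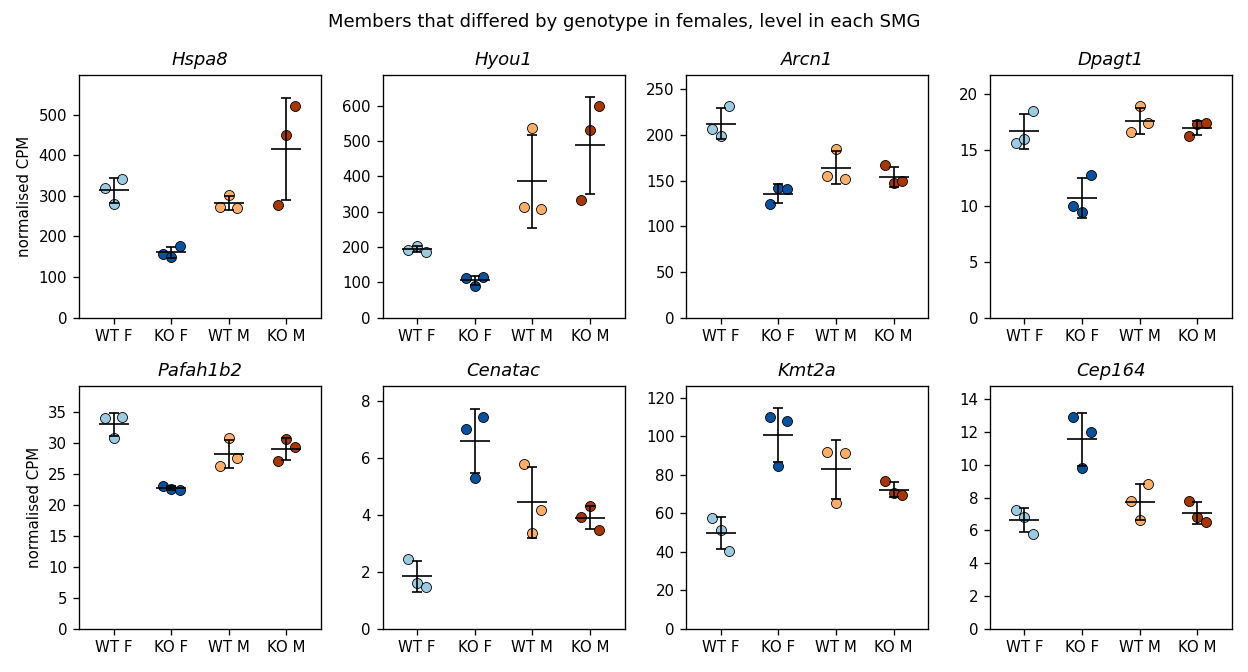
Level of 8 members called in females, in each SMG, in normalised CPM (y axis) by group (x axis: WT, wild type; KO, Pou2f3-/-; F, female; M, male). Points are single mice and bars show the mean and SD of 3. The mean of KO females is the lowest of the groups for Hspa8, Hyou1, Arcn1, Dpagt1 and Pafah1b2, and the highest for Cenatac, Kmt2a and Cep164.

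Among 6 tested genes of the cytoskeleton and cilium, Cep164 rose and Tagln fell in Pou2f3-/- females, where 36.9% of all genes were called. Cep164, a distal appendage protein of the centriole needed for cilia, stood at 7.25, 6.8 and 5.79 CPM in wild-type females against 12.9, 9.78 and 12 CPM in Pou2f3-/- females (log2 fold change 0.80, SE 0.14, adjusted p = 0.0013, edgeR). Tagln stood at 13.5, 16.1 and 21.1 CPM against 9.99, 10.8 and 8.3 CPM (−0.80, SE 0.21, adjusted p = 0.0098, edgeR). Both genes separated the female genotypes. Beside Tagln, 8 markers of myoepithelium and smooth muscle summed to 174 to 234 CPM in wild-type and 144 to 164 CPM in Pou2f3-/- females, with 4 of 8 called lower. Their part in the level of Tagln was not tested.

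Adhesion molecules gave 2 female calls among 9 tested members, beside 36.9% of all genes. Mpzl2, an epithelial junction protein, stood at 25, 26.9 and 32.5 CPM in wild-type females and 14.9, 22.2 and 15.5 CPM in Pou2f3-/- females (log2 fold change −0.68, SE 0.17, adjusted p = 0.0079, edgeR). Dscaml1, a neuronal adhesion molecule, was low throughout, at 0.156, 0.112 and 0.209 CPM in wild-type females and 0.719, 0.487 and 0.193 CPM in Pou2f3-/- females, with overlap. Its call (1.56, SE 0.54, adjusted p = 0.04, edgeR) was lost without any 1 of 9 libraries (up to 0.19), those kept being Pou2f3-/- female 3 and Pou2f3-/- males 1 and 2. The call was also lost with a replicate block and in a fit of the female libraries alone (adjusted p up to 0.059, edgeR). Of the remaining female calls, Gramd1b, which moves cholesterol from the plasma membrane to the ER, rose by 0.62 (SE 0.15, adjusted p = 0.007, edgeR) and Vwa5a fell by 0.35 (SE 0.10, adjusted p = 0.014, edgeR), a call lost under upper-quartile scaling and by limma (up to 0.068). C2cd2l, a lipid transfer protein at contacts of ER and plasma membrane, fell by 0.64 (SE 0.19, adjusted p = 0.019, edgeR), and this was lost without wild-type female 2 (0.053) and by limma (0.29). Ttc36 was near the detection limit in wild-type females, with 6, 3 and 1 counts, and higher in Pou2f3-/- females, at 14, 15 and 11 counts (adjusted p = 0.014, edgeR), a call lost without wild-type female 3 (0.053).

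Channel and transport genes counted 6 tested members. In females 0 of them were called by edgeR or limma, and 0 of the 7 on this list that DESeq2 tested. By these tools 0 had an unadjusted p under 0.05. Over all genes tested, edgeR called 36.9% in females, and 46.3% had an unadjusted p under 0.05. Fxyd2, the most abundant of them per length, stood at 77 to 108 CPM in wild-type and 89.4 to 123 CPM in Pou2f3-/- females, and at 71 to 108 CPM and 54.3 to 90.7 CPM in males, with overlap in both sexes. Its log2 fold changes were 0.19 (SE 0.21) and −0.36 (SE 0.21). The sodium channel beta subunits Scn2b and Scn3b and the glutamate receptor subunit Grik4 reached at most 1.65 CPM in any library. Abcg4, a sterol transporter, was near the detection limit in wild-type females, with a mean of 0.0895 CPM beside 0.671 CPM in wild-type males. Of the membrane serine proteases, Tmprss13 was higher in 3 of 3 Pou2f3-/- females, at 9.47, 10.2 and 8.75 CPM beside 7.58, 7.56 and 8 CPM. It was lower in 3 of 3 Pou2f3-/- males, at 8.13, 6.57 and 5.68 CPM beside 10.4, 10.1 and 13.6 CPM. Neither difference was called (0.30, SE 0.15, adjusted p = 0.13 and −0.74, SE 0.15, adjusted p = 0.072, edgeR). With Bcl9l it made 2 members with this pair of separations, a pattern shared by 2.62% of all genes tested. Tmprss4, the other such protease, had group means of 0.0605 to 0.174 CPM.

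In males, 1 of 68 tested members was called, or 1.47%, beside 0.235% of all genes tested (0.101% higher and 0.134% lower), 0.289% of coding genes and 0.416% of coding genes on the rest of chromosome 9. That member was Usp2, whose male call was lost without any 1 of 6 libraries. An unadjusted p under 0.05 was found for 11 members, beside 11.5% of all genes. The groups did not overlap for 14 members (20.6%), 7 higher and 7 lower, beside 14.5% of all genes. The higher ones included Ubash3b, Oaf, Thy1, Gm49380, Vps11 and Fxyd6, and the lower ones were Usp2, Bcl9l, Ift46, Tmprss13, Dscaml1, Sidt2 and Sik3. DESeq2, and edgeR without a low-count filter, called 4 members in males: Usp2, Thy1, Oaf and Tmprss13. Without Pou2f3-/- male 1, edgeR called these 4 and Hspa8. The median log2 fold change in males was −0.04 over members and over all genes.

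Averaged over both sexes, 13 members differed by genotype, 4 higher and 9 lower, or 19.1% beside 17.5% of all genes tested (6.20% higher and 11.3% lower), 20.3% of coding genes and 23.0% of those on the rest of chromosome 9. Usp2 led with −1.55 (SE 0.10, adjusted p = 2.2e-06, edgeR). The calls of Arcn1 (−0.37, SE 0.08), Cenatac (0.82, SE 0.16), Ddx6 (−0.30, SE 0.07), Dpagt1 (−0.34, SE 0.08) and Usp2 were kept in every setting and without any 1 library. Apart from Usp2, these values reflect the female difference: the male log2 fold changes of the other 4 lay between −0.19 and 0.01. Without 1 library the count ran from 8 to 17, at 8 without Pou2f3-/- female 3, Pou2f3-/- male 2 or 3, wild-type female 3 or wild-type male 2.

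The genotype difference itself differed between the sexes for 22 members, 8 with a more positive and 14 with a more negative log2 fold change in females. This is 32.4% of the members, beside 25.7% of all genes (13.4% and 12.4%), 26.6% of coding genes and 29.3% of coding genes on the rest of chromosome 9. Removing wild-type male 1 or 3 lowered the count to 13 or 12. Usp2 was the member that fell in both sexes and fell more in females. Hspa8 fell in females beside a positive value in males, with an interaction of −1.52 (SE 0.27, adjusted p = 0.0044, edgeR). Cenatac and Kmt2a rose in females beside values close to 0 in males, with interactions of 2.02 (SE 0.33, adjusted p = 0.0037, edgeR) and 1.21 (SE 0.23, adjusted p = 0.0048, edgeR). Blood markers, a list of 4 hemoglobin genes, summed to 2.81 and 3.06 CPM in Pou2f3-/- males 3 and 2 and to at most 0.936 CPM elsewhere, and 4 adipocyte markers to 15.1 and 31.4 CPM in the same males, 41.2 CPM in wild-type female 3 and 1.38 to 5.5 CPM in the other 9 libraries. The 5 macrophage markers summed to 94.0 and 99.2 CPM in Pou2f3-/- males 3 and 2 and to 49.1 to 59.9 CPM in the other males. Of these 5, 3 were called in the interaction. Hspa8, Oaf and Thy1 were highest among males in the same 2 libraries, and the part of those cells in these values was not tested.

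**Figure D4:**
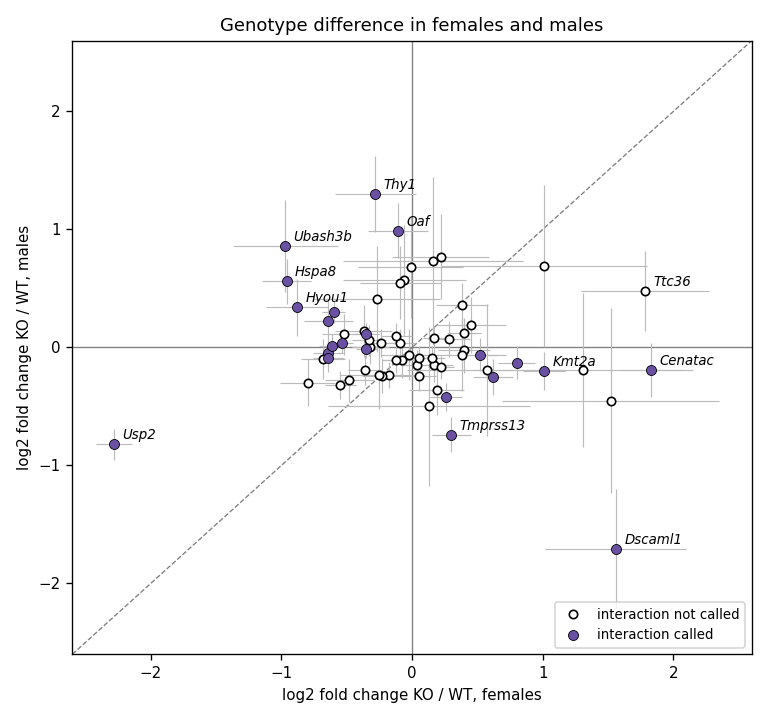
Log2 fold change between Pou2f3-/- and wild type in females (x axis) against males (y axis) for 66 tested members with an SE under 1. Bars are the SE, filled points passed the test of the difference between the sexes, and the dashed line marks equal change. Usp2 is negative on both axes, and Dscaml1 is positive in females and negative in males.

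Between wild-type males and females, 30 members differed, 23 higher and 7 lower in males. The split was 20 and 10 under upper-quartile scaling and by DESeq2, and 16 and 11 by limma. This is 44.1% of the members, beside 36.5% of all genes tested (20.5% higher and 16.0% lower), 40.5% of coding genes and 41.6% of those on the rest of chromosome 9. The median log2 fold change was 0.24 over members and 0.06 over all genes. The groups did not overlap for 40 members, beside 47.6% of all genes. Mcam, an adhesion molecule of vessel walls and smooth muscle, stood at 2.16, 2.24 and 2.82 CPM in females and 14.5, 26.3 and 18.3 CPM in males. It was 8.22-fold higher in males (log2 fold change 3.04, SE 0.27, adjusted p = 2.8e-06, edgeR), and the Pou2f3-/- glands kept this order, at 1.99 to 3.89 CPM in females and 18.5 to 26.1 CPM in males. Tagln was 3.8-fold higher in males, at 50.4, 75.8 and 66.2 CPM (adjusted p = 1.4e-05, edgeR). The 8 myoepithelial and smooth muscle markers summed to 463 to 554 CPM in these males against 174 to 234 CPM in females, with 6 of 8 called higher, and their part was not tested.

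Sc5d, an enzyme of the last steps of cholesterol synthesis, stood at 23.8, 27.7 and 28.2 CPM in wild-type females and 76.6, 113 and 95.4 CPM in wild-type males. It was 3.58-fold higher in males (log2 fold change 1.84, SE 0.15, adjusted p = 1.1e-06, edgeR) and showed no called genotype difference in either sex (−0.32, SE 0.14 and 0.00, SE 0.14). Ttc36, a tetratricopeptide repeat protein, had 47, 98 and 82 counts in wild-type males beside 6, 3 and 1 in females (log2 fold change 3.82, SE 0.46, adjusted p = 3.2e-05, edgeR). Tbcel was 1.87-fold higher in males (log2 fold change 0.90, SE 0.14, adjusted p = 0.00027, edgeR) without overlap. On the female side stood Thy1, 3.56-fold lower in males (−1.83, SE 0.32, adjusted p = 0.00075, edgeR), and Mpzl2, 2.74-fold lower at 9.09, 10.3 and 11.5 CPM (−1.45, SE 0.17, adjusted p = 3.2e-05, edgeR). Sidt2, the beta-secretase gene Bace1 and Vwa5a were also lower in males, by −0.64 (SE 0.12), −0.59 (SE 0.12) and −0.41 (SE 0.10), and the call of Vwa5a was lost by limma (adjusted p = 0.16).

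**Figure D5:**
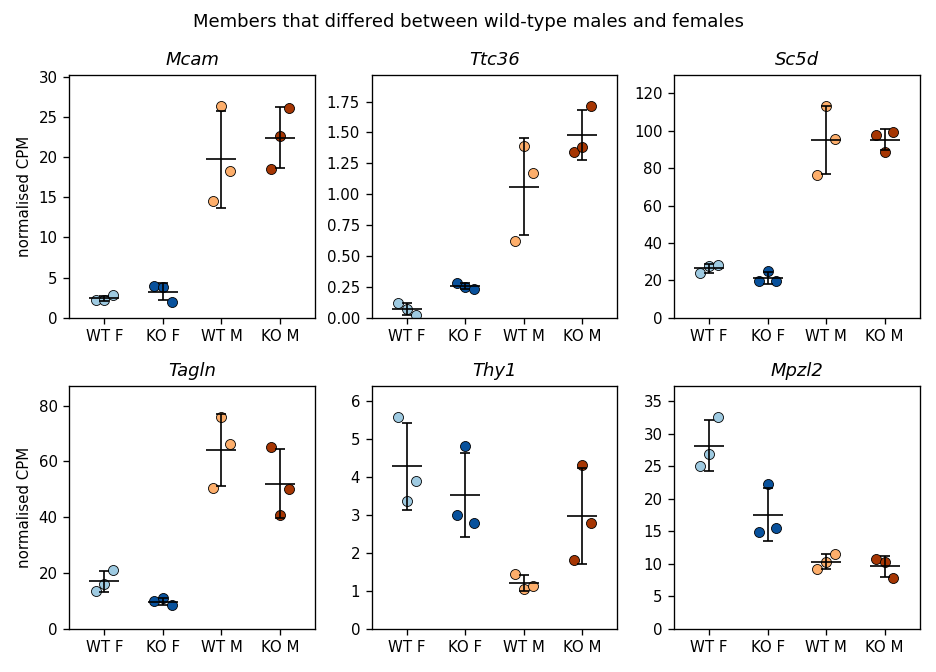
Level of 6 members called between wild-type males and females, in each SMG, in normalised CPM (y axis) by group (x axis: WT, wild type; KO, Pou2f3-/-; F, female; M, male). Points are single mice and bars show the mean and SD of 3. Mcam, Ttc36, Sc5d and Tagln are higher in males of both genotypes, and Thy1 and Mpzl2 have their highest mean in wild-type females.

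The 23 members that were not tested were scarce or silent in the gland. Of these, 6 had 0 counts in every library, among them Ccdc153, Foxr1 and Apoa5, and 10, counting those 6, had at most 3 counts in every library. The CD3 chains of the T cell receptor complex, Cd3e, Cd3d and Cd3g, had at most 14, 2 and 5 counts in any library, and the lymphocyte chemokine receptor Cxcr5 at most 2. The list of 11 T cell markers, 5 of which stayed under 10 counts in every library, summed to 1.52 to 3.44 CPM over all glands. Il10ra, the interleukin 10 receptor subunit of leukocytes, was tested and had group means of 2.39 to 3.66 CPM, with log2 fold changes of −0.09 (SE 0.31) in females and 0.55 (SE 0.31) in males.

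The apolipoprotein genes, which intestine and liver use to build lipoproteins, were almost confined to 1 library. Apoa4 had 167 counts in Pou2f3-/- female 2 and 0 in each of the other 11 libraries. Apoc3 had 12 counts in the same library and 0 elsewhere. Apoa1 had 65 counts there, 12 in Pou2f3-/- male 3 and at most 1 in the other 10 libraries. A list of 10 small intestine genes, drawn up after these counts were seen, was counted in the same gland. Apob had 455 counts there and at most 9 elsewhere, the goblet cell mucin Muc2 219 and at most 17, the brush border phosphatase Alpi 188 and 0, and Zg16 106 and at most 3. Other genes of the list were also counted in the remaining glands: Mttp had 249 counts there and up to 269 elsewhere, and Vil1 147 and up to 116. The sum of that list was 24.6 CPM in Pou2f3-/- female 2 and 3.82 to 5.08 CPM in the other libraries. The origin of these transcripts was not tested.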

How the data were processed

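Total RNA of snap-frozen SMGs was sequenced as stranded, rRNA-depleted, paired-end libraries per the study's methods, whereas the labels name polyA RNA. The authors deposited estimated counts per gene made with Salmon 1.10.1 against Gencode M35 transcripts of GRCm39. A second deposited table holds the authors' normalized counts, a signal whose gene-wise factors are not given in the sources used here. Members, lists and tests were chosen with earlier results of these data known.

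Estimated counts were rounded. Tests used edgeR 4.0.16 in R 4.3.3 (TMM scaling, default filterByExpr, quasi-likelihood test, 1 mean for each of 4 groups, all 12 libraries), with Benjamini-Hochberg adjustment over 17893 genes and a threshold of 0.05. Each library is 1 mouse. Normalised CPM are counts scaled by the library total times its TMM factor. A count of 0 was taken to allow 3 counts. Log2 fold changes were those of the edgeR fit, and their SE was the absolute log2 fold change over the square root of F. Log2 CPM, used to compare same-numbered replicates, had a prior count of 2. Named members were Usp2, the 5 nearest on each side of Pou2f3, called members by adjusted p (at most 10 in males or the mean of both sexes, 8 in each direction in females without overlap, 5 in each direction otherwise), the highest and most changed of each role list, and the 5 of highest level per length. Others were named after their values were seen, and a member that the rule names is not reported here. Gene models and sequence came from Gencode M39 on GRCm39, which lacked some deposited identifiers.

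Alternatives were DESeq2 1.42.0, limma 3.58.1 on log2 of the authors' normalized counts plus 1, relative log expression and upper-quartile scaling, library sizes from coding genes or without the 20 most abundant genes, no filter, a replicate block, a floor of 10 counts in each library, a fit within each sex, and each library left out. On simulated counts for 17571 genes in the female comparison, 74.0% of 200 genes changed 3-fold were recovered and 6.92% of calls were false. Each gene was simulated from its mean over all 12 libraries, and the 200 were changed in Pou2f3-/- females only. In the real female comparison 36.9% of genes were called, so these rates need not hold there.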

Additional observations from a re-analysis of the deposited data

Results flagged for a closer look

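The genotype difference differed between the sexes for 22 members by the edgeR interaction test, as the log2 fold change in females minus that in males. A lower value in females was measured for Usp2 (−1.47), Hspa8 (−1.52), Pafah1b2 (−0.59), Ddx6 (−0.62), Hyou1 (−1.22), Thy1 (−1.58), Dpagt1 (−0.58), Oaf (−1.10), Vwa5a (−0.46), Arcn1 (−0.55), Ubash3b (−1.83), C2cd2l (−0.85) and Ube4a (−0.33). A higher value in females was measured for Cenatac (2.02), Kmt2a (1.21), Tmprss13 (1.04), Cep164 (0.94), Dscaml1 (3.26), Gramd1b (0.88), Bcl9l (0.69) and Hinfp (0.57). Of these, 10 were called in every setting and without any 1 library, among them Cenatac, Ddx6, Dscaml1, Gramd1b, Hspa8, Kmt2a, Pafah1b2, Tmprss13 and Usp2. The value of Ubash3b was −1.15 without wild-type female 1, and its call was lost by limma (adjusted p = 0.083) and, by edgeR, without any 1 of 6 libraries: Pou2f3-/- females 1 and 3, Pou2f3-/- males 2 and 3, and wild-type males 1 and 3 (up to 0.073). Dscaml1 and Ubash3b were low, at most 0.784 and 3.19 CPM in any library.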

How the results depend on the processing

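The number of members called in females, 24, ran from 19 to 26 without 1 library and from 21 to 25 under the other settings. In males the count of 1 became 4 without a low-count filter, 4 by DESeq2 and 0 in a fit within the sex, and ran from 0 to 5 without 1 library. For the mean of both sexes it ran from 8 to 17, for the interaction from 12 to 24 and for wild-type males against females from 22 to 31 without 1 library. No named call changed direction. Over the 10 other settings the female calls were kept in 218 of 238 gene and setting pairs, and without 1 library in 257 of 288. The cause of these shifts was not tested. Replicate numbers did not pair the mice: deviations of same-numbered wild-type and Pou2f3-/- libraries correlated at −0.135 to 0.0904, and a replicate block gave 22 calls in females, 1 in males, 12 for the mean, 20 for the interaction and 29 between wild-type sexes. Depth limited the precision for members of few counts: the SE of the female log2 fold change was 1.34 for Grik4 and 1.27 for Gm49380.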
